A study of Mus musculus with 3 samples.

Results

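The genes described here encode the nuclear part of the mitochondrial respiratory chain and of ATP synthase. They were taken by symbol from the RefSeq protein-coding genes of mm10 on nuclear chromosomes: symbols that start with Nduf, Uqcr, Cox4, Cox5, Cox6, Cox7, Cox8 or Atp5, together with Sdha, Sdhb, Sdhc, Sdhd, Cycs and Cyc1. The rule gave 98 of 21887 protein-coding genes, spread over 19 chromosomes, and used no measured value. They comprise 41 complex I genes, 8 assembly factors of complex I named Ndufaf, 4 genes of complex II, 9 of complex III, 18 of complex IV, 17 of complex V and the gene of cytochrome c.

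The readout was H3K27ac, histone H3 acetylated at lysine 27, which marks promoters and enhancers in use, in double-negative thymocytes. These are T cell precursors without CD4 and CD8, here sorted as CD25+ with or without CD44 from the thymus of wild-type C57BL/6J mice 5 to 7 weeks old. Chromatin was captured with an antibody against H3, fitted with adapters and precipitated with an antibody against H3K27ac. There are 2 H3K27ac replicates and 1 input sample, which was not analysed here. All groups are wild type, so there is no contrast of genotype or treatment. The labels do not say whether the replicates came from separate animals or pools, and their difference may be technical.

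The respiratory chain passes electrons from NADH (complex I) and succinate (complex II) through complex III and cytochrome c to oxygen at complex IV. Protons pumped on the way drive ATP synthase, complex V. Complexes I, III, IV and V combine nuclear subunits with others made inside the mitochondrion, and their nuclear genes are transcribed in nearly every cell. Several subunits of complex IV exist as isoforms, one made broadly and another made mainly in heart and skeletal muscle, lung or testis.

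A gene was called when each replicate had a peak within 1 kb of either annotated end of the gene, a gene end. Of the 98 genes, 34 (34.7%) were called, against 16.8% of all protein-coding genes. Replicate 1 had a gene-end peak at 48 (49%, against 25.1% of all genes) and replicate 2 at 52 (53.1%, against 22.2%). A further 14 genes had a peak in replicate 1 alone, 18 in replicate 2 alone, and 32 had none. Without the Ndufaf genes 32 of 90 were called (35.6%). No test was made of the difference from all genes. The 2 lists hold 12377 and 9477 peaks on the assembled chromosomes and give no read counts, so depth is unknown and an absent peak does not show absent acetylation. A peak carried by some of the cells and a weaker peak in all of them cannot be told apart.

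**Figure D1:**
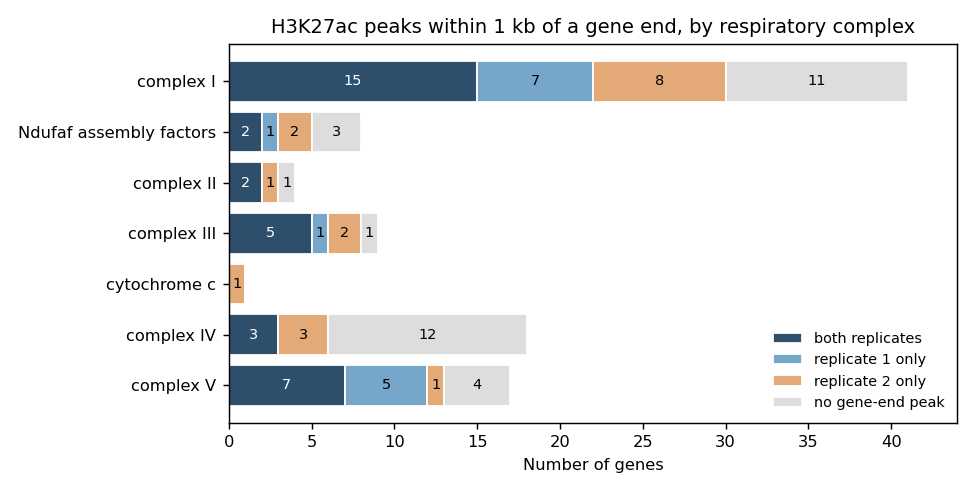
Number of genes (x axis) of each complex with an H3K27ac peak within 1 kb of a gene end in both replicates, in 1 replicate alone or in neither. Complex III had peaks in both replicates at 5 of 9 genes and complex IV at 3 of 18, beside 16.8% of all genes.

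Start-site sequences of 7 genes are given first, because acetylation lay around the start and because factors known to act on respiratory genes bind there. They are RefSeq promoter sequences of GRCm38.p6, the assembly behind mm10, and run from 250 bases before to 50 bases after the start site on the strand of the gene. Such sequences were given for 79 of the 98 genes. Capitals mark matches, on either strand, to 3 motifs: GCGCNTGCG for NRF-1, CCGGAAG for Ets factors and GABP, and AAGATGGCG for YY1. The genes shown are examples and do not stand for the set. Any of the 3 motifs was found in 13 of 29 promoters of called members of the 98 (44.8%), beside 37.2% over all called genes. It was 18 of 30 (60%) for members with a peak in 1 replicate and 14 of 25 (56%) for those without. Ndufaf8 and Uqcrh had peaks in both replicates. In Ndufaf8 an Ets and GABP match begins 8 bases before the start and a YY1 match 10 bases after it, and in Uqcrh an Ets and GABP match lies on the other strand 10 bases before the start. Ndufa11 also had peaks in both replicates and carries overlapping NRF-1 matches on both strands, 60 and 59 bases before the start.
Ndufaf8 (chr11:120098684-120098983, plus strand): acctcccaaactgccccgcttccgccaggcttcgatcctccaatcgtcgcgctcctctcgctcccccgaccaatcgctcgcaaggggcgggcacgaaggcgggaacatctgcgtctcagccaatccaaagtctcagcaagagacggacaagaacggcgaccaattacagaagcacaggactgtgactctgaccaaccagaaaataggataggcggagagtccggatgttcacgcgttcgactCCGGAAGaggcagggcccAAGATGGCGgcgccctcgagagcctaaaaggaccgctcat
Uqcrh (chr4:116075021-116075320, minus strand): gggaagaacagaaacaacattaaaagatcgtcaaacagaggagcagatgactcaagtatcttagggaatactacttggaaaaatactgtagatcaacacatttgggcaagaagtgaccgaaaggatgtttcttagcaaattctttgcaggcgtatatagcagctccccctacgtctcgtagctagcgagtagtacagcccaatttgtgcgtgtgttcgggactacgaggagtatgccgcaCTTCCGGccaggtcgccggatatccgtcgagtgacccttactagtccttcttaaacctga
Ndufa11 (chr17:56717512-56717811, plus strand): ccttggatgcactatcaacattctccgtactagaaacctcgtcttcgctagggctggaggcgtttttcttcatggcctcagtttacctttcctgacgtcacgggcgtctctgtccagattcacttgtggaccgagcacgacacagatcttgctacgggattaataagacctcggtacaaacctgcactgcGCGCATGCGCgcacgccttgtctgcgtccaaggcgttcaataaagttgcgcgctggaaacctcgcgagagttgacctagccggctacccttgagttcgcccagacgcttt

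The next 3 sequences set the isoforms of complex IV side by side. Cox8b and Cox7a1 are the heart and skeletal muscle forms, and Cox8a is the broadly expressed partner of Cox8b. Cox8a had a peak in both replicates, Cox7a1 in replicate 2 alone and Cox8b in neither. Cox8b and Cox7a1 hold no match to the 3 motifs in this window, and Cox8a holds 2 Ets and GABP matches. Cox7a2, the partner of Cox7a1, is not shown and also holds no match to the 3 motifs. Cox6a1 and Cox6b1, other broadly expressed forms, hold matches and had no gene-end peak.
Cox8b (chr7:140900397-140900696, minus strand): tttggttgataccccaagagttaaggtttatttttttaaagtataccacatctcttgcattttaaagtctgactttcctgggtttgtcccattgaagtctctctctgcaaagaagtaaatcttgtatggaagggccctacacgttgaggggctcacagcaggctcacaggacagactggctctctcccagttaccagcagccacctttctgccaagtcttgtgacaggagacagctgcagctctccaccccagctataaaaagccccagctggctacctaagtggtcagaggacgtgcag
Cox7a1 (chr7:30183921-30184220, plus strand): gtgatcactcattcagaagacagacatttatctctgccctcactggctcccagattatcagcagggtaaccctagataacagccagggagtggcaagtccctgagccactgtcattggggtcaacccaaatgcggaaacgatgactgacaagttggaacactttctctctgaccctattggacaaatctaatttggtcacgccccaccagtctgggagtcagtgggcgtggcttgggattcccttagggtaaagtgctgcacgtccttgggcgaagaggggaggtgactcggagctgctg
Cox8a (chr19:7217567-7217866, minus strand): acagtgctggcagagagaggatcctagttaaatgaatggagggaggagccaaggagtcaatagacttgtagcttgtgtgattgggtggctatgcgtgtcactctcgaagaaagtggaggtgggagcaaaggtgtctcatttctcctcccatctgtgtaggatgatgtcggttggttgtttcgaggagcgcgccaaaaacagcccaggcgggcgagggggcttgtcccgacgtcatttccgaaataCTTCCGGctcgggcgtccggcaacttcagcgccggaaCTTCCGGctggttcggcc

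The promoter of Cycs, which encodes the cytochrome c of most tissues, is shown because of the 98 genes it had the gene-end peak of smallest p in replicate 2, and none in replicate 1. Its NRF-1 match begins 61 bases before the start site.
Cycs (chr6:50566520-50566819, minus strand): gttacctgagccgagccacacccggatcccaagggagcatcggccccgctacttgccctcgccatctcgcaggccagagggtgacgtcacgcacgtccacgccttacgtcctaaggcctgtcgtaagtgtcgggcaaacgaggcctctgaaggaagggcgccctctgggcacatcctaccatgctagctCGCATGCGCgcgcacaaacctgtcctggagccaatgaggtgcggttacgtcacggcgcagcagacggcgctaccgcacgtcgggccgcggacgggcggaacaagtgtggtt

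Complex I, the NADH dehydrogenase through which most electrons enter, had 15 of 41 genes called (36.6%, against 16.8% of all genes). Among the core subunits, which carry the flavin and the iron-sulfur clusters, Ndufv2 and Ndufs1 were called. Ndufv1 had a peak in replicate 1 alone, Ndufs3 and Ndufs8 in replicate 2 alone, and Ndufs7 had none. Of the accessory subunits, 13 of 34 were called. They included 6 of 13 Ndufb genes, which build the membrane arm: Ndufb1, Ndufb2, Ndufb5, Ndufb6, Ndufb9 and Ndufb11. Ndufa2, Ndufa4, Ndufa7, Ndufa11, Ndufa13, Ndufc2 and Ndufs6 were the others. Ndufa4 is counted here by its symbol, although its product is now regarded as a subunit of complex IV.

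The widest shared acetylation of complex I lay at Ndufa13, also known as GRIM-19, where peaks of both replicates covered 1312 bp within the gene-end windows. Its peaks had folds of 2.47 in replicate 1 and 2.89 in replicate 2. Ndufa7 had 1188 bp, with folds of 2.31 and 2.58 in replicates 1 and 2. Ndufa11, an accessory subunit of the membrane arm (chromosome 17, 56717762 to 56724248), had 1042 bp. Its folds differed between the replicates, at 1.89 in replicate 1 and 3.52 in replicate 2, and so did its −log10 q, at 0.622 and 3.63. Ndufb1 and Ndufs6 had the same pattern, with folds of 2.38 and 1.94 in replicate 1 and 4.13 and 3.65 in replicate 2. A gene-end peak of Ndufa13 also lay near an end of Tssk6, of Ndufa7 near Kank3 and Rps28, and of Ndufa11 near Vmac. The bp covered there cannot be given to a single gene.

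Ndufv2, a core subunit that holds an iron-sulfur cluster, was the only complex I gene with q of at most 0.05 in both replicates. At its start the peaks ran from 66100839 to 66102565 in replicate 1 and from 66101157 to 66101969 in replicate 2 (chromosome 17), with folds of 2.54 and 3.02 and −log10 q of 1.67 and 1.81. Replicate 2 had another peak at the far end of the gene, with a fold of 3.94. Ndufa4 was called with peaks that did not meet, at 11906826 to 11907701 in replicate 1 and 11907932 to 11908160 in replicate 2. Ndufb6 was called by peaks beyond its 3' end alone, near the ends of Topors and Smim27.

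The remaining complex I genes had a peak in 1 replicate or none. Peaks of replicate 1 alone lay at Ndufa3, Ndufa6, Ndufa9, Ndufab1, Ndufb8 and Ndufv3 beside Ndufv1. Peaks of replicate 2 alone lay at Ndufa5, Ndufa10, Ndufa12, Ndufb4, Ndufb7 and Ndufc1 beside Ndufs3 and Ndufs8. The genes without a peak included Ndufa1, Ndufa4l2, Ndufa8, Ndufb3, Ndufb4b, Ndufb4c, Ndufb10, Ndufs4, Ndufs5 and Ndufs7. Ndufa4l2 is an isoform induced by low oxygen.

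Of the Ndufaf genes, which help to build complex I and are not part of it, 2 of 8 were called (25%, against 16.8% of all genes). Ndufaf8 (chromosome 11, 120098934 to 120100424), which is needed to make the Ndufaf5 protein work, had folds of 3.39 and 3.90 in replicates 1 and 2 and −log10 q of 2.55 and 3.60. It stood above the median fold of all called genes in both replicates, 2.18 and 2.35. Ndufaf1 had lower peaks, with folds of 2.02 and 2.07. Ndufaf3 had a peak in replicate 1 alone, Ndufaf2 and Ndufaf7 in replicate 2 alone, and Ndufaf4, Ndufaf5 and Ndufaf6 had none.

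Complex II, succinate dehydrogenase, is encoded wholly in the nucleus and also serves the tricarboxylic acid cycle. Its membrane anchors Sdhc and Sdhd were called, its flavoprotein gene Sdha had a peak in replicate 2 alone, and its iron-sulfur gene Sdhb had none. Sdhc had folds of 2.25 and 2.19 in replicates 1 and 2, with −log10 q of 0.901 and 0.904. Sdhd (chromosome 9, 50596340 to 50603849) had q of at most 0.05 in both replicates, with −log10 q of 3.90 in replicate 1 and 8.18 in replicate 2, but folds of only 1.16 and 1.25. Such a pair of values, a −log10 p of 5 or more on a fold below 2, was found at 4 of the 98 genes in replicate 1 (Sdhd, Ndufv3, Atp5e and Atp5l) and at Sdhd alone in replicate 2. Sdhd and Atp5l lie on chromosome 9, Ndufv3 on chromosome 17 and Atp5e on chromosome 2. Peaks of this kind made up 25.5% of all peaks on chromosomes 6, 9, 14 and 17 in replicate 1 and 27.5% in replicate 2, against 0.35% and 0.546% on the other chromosomes. The peak of Sdha in replicate 2 had a fold of 3.21 and −log10 q of 2.48.

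Complex III, which passes electrons to cytochrome c, had 5 of 9 genes called (55.6%, against 16.8% of all genes). Peaks in both replicates lay at Uqcrh, the hinge protein, Uqcrq, Uqcr10, Uqcrc2, a core subunit, and Uqcrfs1, the Rieske iron-sulfur protein. Uqcrh had 1009 bp covered by both replicates, with folds of 2.61 and 2.47 in replicates 1 and 2. Uqcrq (chromosome 11, 53427922 to 53430831) had 578 bp and q of at most 0.05 in both replicates, with folds of 3.38 and 3.08 and −log10 q of 2.37 and 2.98. Uqcrc2 had 355 bp, with folds of 2.34 and 2.30. Cyc1, which encodes cytochrome c1, had a peak in replicate 1 alone with a fold of 1.58. Uqcrb and Uqcrc1 had a peak in replicate 2 alone and Uqcr11 had none.

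Cycs (chromosome 6, 50562563 to 50566569) had a peak from 50566398 to 50566998 in replicate 2, with a fold of 5.24 and −log10 q of 13.9. Replicate 1 had no gene-end peak there. No gene-end peak was listed for Cyct, the cytochrome c gene of testis, which is not among the 98.

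Complex IV, cytochrome c oxidase, had 3 of 18 genes called (16.7%), near the 16.8% of all genes. Cox7c, Cox6c and Cox8a had peaks in both replicates, with 770, 589 and 240 bp covered by both. Cox8a had folds of 2.35 in replicate 1 and 5.51 in replicate 2, the highest fold of any called member. Its −log10 q was 1.14 and 7.10. Cox6c had close folds of 2.41 and 2.36, and Cox7c had 2.21 and 2.53. Cox4i1 and Cox7a2l had a peak in replicate 2 alone, and Cox5b, with Cox5a and others named below, had none.

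The tissue-restricted isoforms were compared with their partners because a thymocyte is held to use the broad forms. None of the 7 isoforms of lung (Cox4i2), heart and skeletal muscle (Cox6a2, Cox7a1, Cox8b) and testis (Cox6b2, Cox7b2, Cox8c) was called. Of the 6 partners 1 was called (Cox8a), near the 16.8% of all genes. With a peak in either replicate the counts were 1 of 7, namely Cox7a1, and 2 of 6, namely Cox8a and Cox4i1, against 30.5% of all genes. The peak of Cox7a1 was in replicate 2, with a fold of 2.18 and −log10 q of 0.928. No gene-end peak was listed for the partners Cox6a1, Cox6b1, Cox7a2 and Cox7b. The difference between isoforms and partners was not tested. Complex IV without the 7 isoforms had 3 of 11 genes called (27.3%).

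The annotated end of a gene was not always its start site, and this bore on complex IV. For Cox7a2 the RefSeq start site lies 11569 bp from the annotated 5' end of the gene, and both replicates had a peak over it, with folds of 1.58 and 1.49 and −log10 q of 21.6 and 11.8. Cox5a, with a start site 3904 bp from its 5' end, likewise had peaks over it with folds of 1.41 and 1.21 and −log10 q of 9.51 and 4.32. Both genes lie on chromosome 9 and their peaks join small folds to small p, as at Sdhd. In complex V, Atp5d had peaks at a start site 3617 bp from its 5' end, with taller folds of 3.93 and 2.47. Its replicate 2 peak began 76 bp after that site. Atp5g3 had peaks over a start site 1138 bp from its 5' end, with folds of 5.23 and 2.25. With a peak at a gene end or at a RefSeq start site, a count chosen after these values were seen, 38 of the 98 genes were called, against 18.3% of all genes, among them 5 of 18 in complex IV, 9 of 17 in complex V and 2 of the 6 partners.

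Complex V, the ATP synthase, had 7 of 17 genes called (41.2%, against 16.8% of all genes). In the F1 head, where ATP is made, Atp5a1 (alpha), Atp5b (beta) and Atp5c1 (gamma) were called, Atp5e (epsilon) had a peak in replicate 1 alone and Atp5d (delta) had no gene-end peak. Atp5b, which holds the catalytic site, had 584 bp covered by both replicates, with folds of 2.76 and 2.5 in replicates 1 and 2. Atp5c1 (chromosome 2, 10056030 to 10080510) had 868 bp, q of at most 0.05 in both replicates, and the closest folds, 2.81 and 2.81. Atp5a1 had folds of 4.60 in replicate 1 and 2.22 in replicate 2.

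The stalk that holds the head in place had Atp5pb and Atp5j called, Atp5o with a peak in replicate 2 alone and Atp5h with none. Atp5pb had the most bp covered by both replicates of all 98 genes, 1367, with folds of 2.42 and 2.19. In the membrane ring of c subunits, where 3 genes encode the same mature protein, Atp5g2 was called while Atp5g1 and Atp5g3 had gene-end peaks in replicate 1 alone. Atp5g3 had the highest fold of replicate 1 among the 98 genes, 5.23 with −log10 q of 6.94. Replicate 2 had its peak at the inner start site described above. Of the small membrane subunits Atp5j2 was called, Atp5l and Atp5md had a peak in replicate 1 alone, and Atp5k and Atp5mpl had none. Atp5l and Atp5e had the gene-end peaks of smallest p in replicate 1, with −log10 q of 20.4 and 18 and folds of 1.75 and 1.36.

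Peaks of the called members were of middling height. Their median fold was 2.35 in replicate 1 and 2.39 in replicate 2, beside 2.18 and 2.35 over all 3674 called genes, and 21 of the 34 had a fold between 2 and 3 in both replicates. The range was 1.16 to 4.60 in replicate 1 and 1.25 to 5.51 in replicate 2. Median peak widths were 840.5 bp and 691.5 bp, beside 921 bp and 783 bp over all called genes. In replicate 1, 12 of the 34 members (35.3%) had q of at most 0.05 at their best peak, beside 26.7% of all called genes. In replicate 2 it was 13 of 34 (38.2%), beside 44.5%. Across the 34 members the folds of the replicates had a Spearman's rho of 0.312 and a Pearson's r of 0.177, given as a description over genes that share the same libraries.

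**Figure D2:**
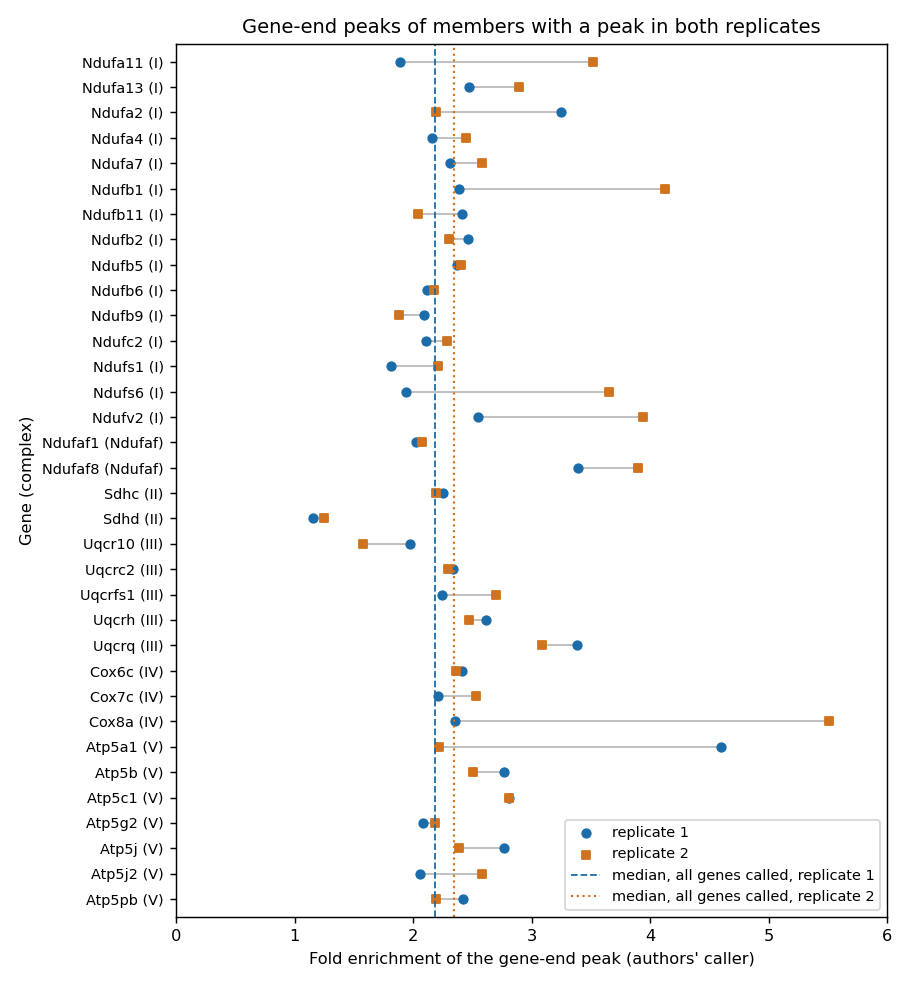
Fold enrichment (x axis, computed by the authors' peak caller) of the gene-end peak of smallest p for each of the 34 called genes, by replicate, with vertical lines at the medians over all called genes, 2.18 and 2.35. Most genes lie between 2 and 3 in both replicates, while Cox8a and Atp5a1 reach 5.51 and 4.60 in 1 replicate each, and the replicate 2 value of Ndufv2 is the peak at its far end.

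Few of these peaks passed a strict threshold. With q of at most 0.05 in both replicates, 5 genes were called (5.1%, against 2.64% of all genes): Ndufv2, Ndufaf8, Sdhd, Uqcrq and Atp5c1. Ndufaf8 is an assembly factor of complex I, the others came from different complexes, and none came from complex IV. Sdhd lies on chromosome 9, with the small folds given above, and Ndufv2 on chromosome 17. With q of at most 1e-05 the count was 0, against 0.731% of all genes. Taking each replicate by itself, and so including these 5 genes, 17 members had a peak with q of at most 0.05 in replicate 1 (17.3%, against 6.78% of all genes). In replicate 2 there were 19 (19.4%, against 9.69%). Peaks of small fold on chromosome 9 count here, at Ndufaf3 (1.10 in replicate 1) and Uqcrc1 (1.04 in replicate 2). So do those of Sdhd, Ndufv3, Atp5e and Atp5l described above. Without chromosomes 6, 9, 14 and 17, which hold most of the peaks of small fold and small p, 28 of 80 genes were called (35%, against 16.9%).

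**Figure D3:**
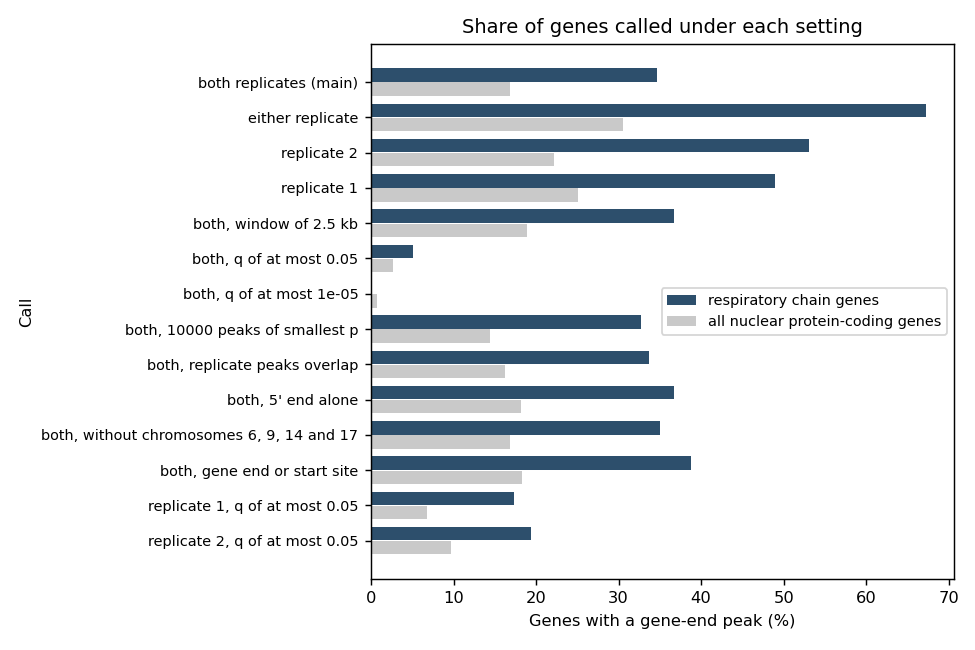
Percentage of genes called (x axis) under each setting, for the 98 respiratory chain genes (dark bars) and for all nuclear protein-coding genes (grey bars). The dark bar is the longer in each setting except q of at most 1e-05, where it is 0, and the 5' end setting counts only genes with a RefSeq start site.

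Most peaks near a known start site lay over it. Among the 79 genes with a known start site, 29 (36.7%, against 18.2% of all genes with one) had peaks of both replicates within 1 kb of it. These include Cox5a, Cox7a2, Atp5d and Atp5g3, which were not called by their gene ends. Of the 34 called members 26 have a known start site, and 25 of them, all but Ndufb6, are among the 29. The start site lay inside the peak in 26 of the 29 in replicate 1 (89.7%) and in 24 in replicate 2 (82.8%), beside 68.8% and 67.1% over all genes so called. The peak centre lay downstream of the start in 20 of the 29 in replicate 1 (69%, beside 63.3% over all genes) and in 17 in replicate 2 (58.6%, beside 62.6%). The median position of the centre was 81 bp in replicate 1 and 31.5 bp in replicate 2, beside 128 bp and 107.5 bp over all genes. Respiratory chain genes are also short, with a median length of 7154 bp against 17169 bp over all genes. The members called had a median of 7720.5 bp and those without a peak 6835 bp.

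**Figure D4:**
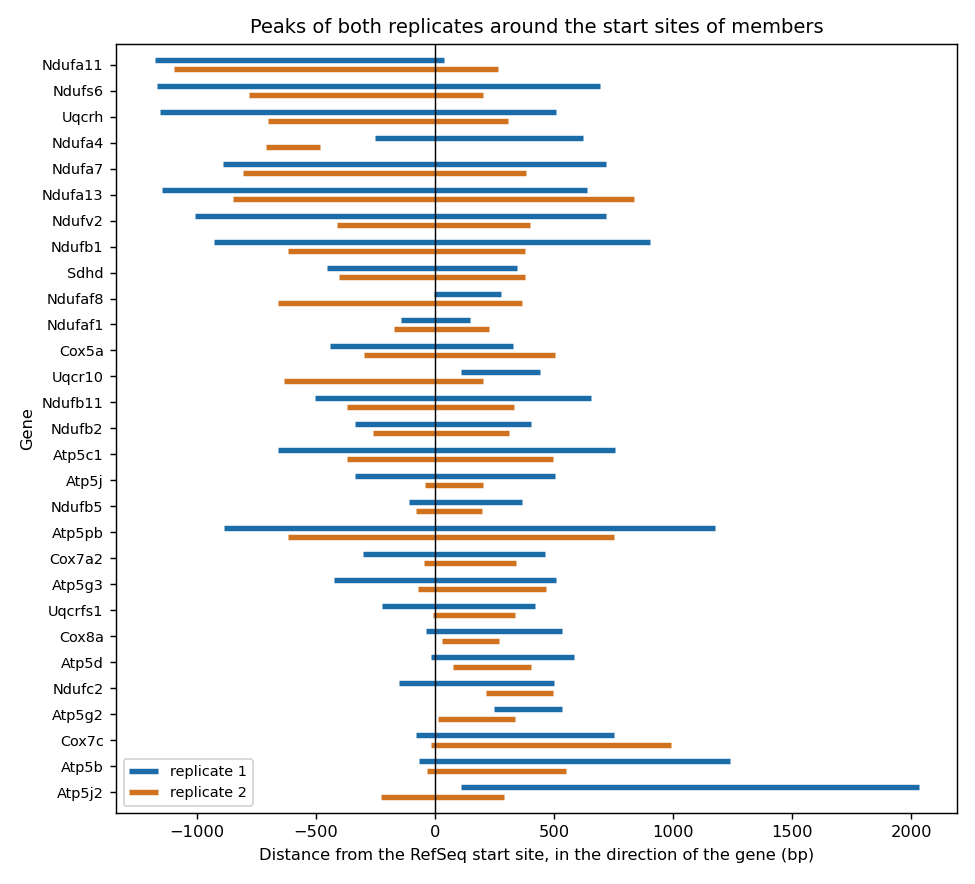
Extent of the peaks of replicate 1 (upper bar of each pair) and replicate 2 (lower bar) around the RefSeq start site of the 29 genes with peaks of both replicates there, as distance in bp in the direction of the gene (x axis), ordered by the mean centre. Bars cross the start site in 26 genes in replicate 1 and in 24 in replicate 2.

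Many of the called genes share their peaks with a neighbour. In 23 of the 34 (67.6%) a gene-end peak also lay within 1 kb of an end of another protein-coding gene, beside 38.7% of all called genes. In 8 it lay near no other annotated gene end. No called gene had another of the 98 genes as such a neighbour, so the calls rest on separate peaks. The peak of Atp5j, at 84835122 to 84835961 in replicate 1 and 84835422 to 84835665 in replicate 2 (chromosome 16), also lay near the end of Gabpa, which encodes a subunit of the Ets factor GABP. Sdhd shared its peak with Timm8b, whose product helps to import proteins, Ndufb5 with Mrpl47 and Ndufs6 with Mrpl36, both of mitochondrial ribosomal proteins. Among the other neighbours were Ik at Ndufa2, Cpsf2 at Ndufb1, Rbm10 at Ndufb11, Wdr77 at Atp5pb, Kin at Atp5c1 and Lrrc41 at Uqcrh. Tepsin at Ndufaf8, Tssk6 at Ndufa13, Kank3 and Rps28 at Ndufa7, Vmac at Ndufa11 and Gdf9 at Uqcrq were others of them. A shared peak cannot be given to either gene.

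The start-site sequences were searched for motifs of factors known to act on respiratory genes. NRF-1, GABP and YY1 are known regulators of nuclear genes for mitochondrial proteins, and Sp1 (GGGCGG) and the CCAAT box (CCAAT) are common in promoters of many kinds. In the 84 promoters of the 79 genes, the NRF-1 letters were found in 28 (33.3%), beside 8.61% of 21263 promoters of all protein-coding genes. Promoters of the same gene can overlap, and the NRF-1 match of Ndufa5 counts in both of its promoters. The Ets and GABP letters were found in 19 (22.6%, beside 11.6%) and those of YY1 in 8 (9.52%, beside 1.83%). Sp1 stood at 44%, beside 46.2%, and the CCAAT box at 42.9%, beside 38.2%. The 84 promoters had a median observed-to-expected CpG ratio of 0.831, against 0.567 over the promoters of all genes and 0.837 over those of all called genes. The part of base composition in the motif shares was not tested.

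The same letters were then counted by the state of the gene-end peaks, which is not always that of the promoter. Cox5a, Cox7a2 and Atp5d count as without a peak, and Atp5g3 as with a peak in 1 replicate. Both replicates had peaks within 1 kb of the start sites of these genes. Ndufb6 counts as called, by peaks beyond its 3' end alone. NRF-1 letters were found in 6 of 29 promoters of called members (20.7%) and in 12 of 30 with a peak in 1 replicate (40%). Members without a peak had them in 10 of 25 (40%), beside 16.4% of the promoters of all called genes. Among the 12 are the overlapping promoters of Ndufa5, which hold the same match. In a narrower window, from 100 bases before to 50 after the start, the 3 groups of members were closer. They stood at 6 of 29 (20.7%), 8 of 30 (26.7%) and 7 of 25 (28%), beside 11.7% of all called genes. Over the full window, Ets and GABP letters were found in 7 of 29 promoters of called members (24.1%), near the 21.7% of all called genes, and in 6 of 30 and 6 of 25 of the other members. YY1 letters were found in 4 of 29 (13.8%), beside 4.36% of all called genes, and in 2 of 30 and 2 of 25 of the other members. Of the promoters of the isoforms, those of the tissue-restricted forms held the NRF-1, Ets and GABP or YY1 letters in 0 of 4 cases and those of the partners in 3 of 5. The CpG ratio had a median of 0.382 in the tissue-restricted isoforms and 0.833 in the partners. These are descriptions of letters in a short window, with no test and no reading of binding.

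**Figure D5:**
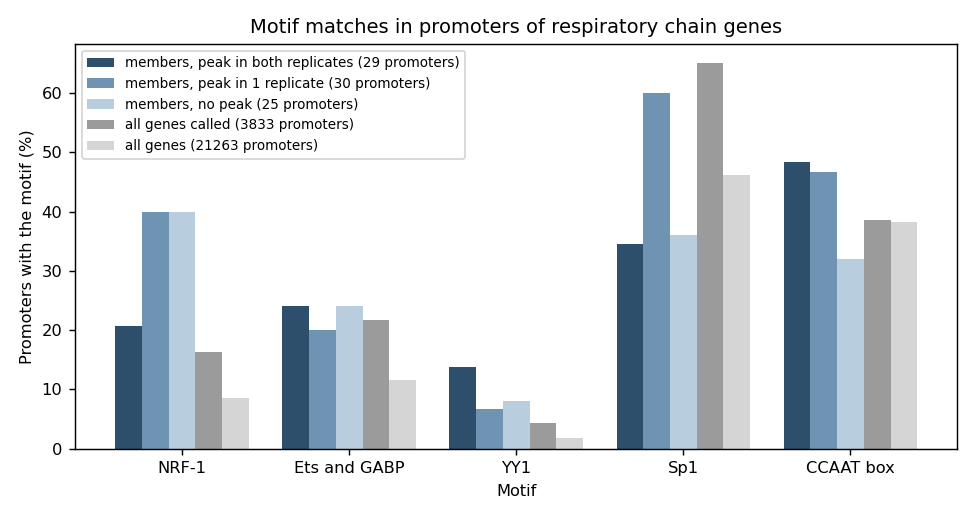
Percentage of promoters (y axis) that hold each motif from 250 bases before to 50 after the start, for respiratory chain genes by their gene-end peaks and for the promoters of all called genes and of all genes. NRF-1 stands at 20.7% in called members, 40% in the other 2 groups of members, 16.4% in all called genes and 8.61% in all genes. From 100 bases before the start, which is not drawn, the 3 groups of members stand at 20.7%, 26.7% and 28%.

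The genes of the factors themselves were counted in the same way. Of 25 genes of mitochondrial gene expression and its regulators, 12 were called (48%, against 16.8%). Nrf1, Yy1, Gabpa, Gabpb2, Hcfc1 and Esrra were among them, and the call of Gabpa rests on the peaks it shares with Atp5j. Yy1 had 2001 bp covered by both replicates, with folds of 2.49 and 3.57, Nrf1 had 1321 bp, with 2.83 and 2.10, and Polg2, part of the mitochondrial DNA polymerase, had 1112 bp, with 3.46 and 1.95. Esrra, an orphan nuclear receptor of oxidative metabolism, had taller peaks, with folds of 4.45 and 6.52.

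Other genes that serve the chain were counted by the same rule, which called 16.8% of all genes. Differences between the lists, or from all genes, were not tested. Of 49 assembly and membrane genes 19 were called (38.8%). Most bp were covered at Foxred1, a complex I assembly factor (1281 bp). Fmc1, which acts on ATP synthase, had 926 bp and Cox20, which acts on complex IV, had 899 bp. Foxred1 lies on chromosome 9 and joined small folds, 1.39 and 1.44 in replicates 1 and 2, to −log10 q of 12.7 and 16.6. Ecsit, also called and on chromosome 9, had folds of 1.03 and 1.08. Of 18 genes of the tricarboxylic acid cycle and pyruvate dehydrogenase 11 were called (61.1%), among them Ogdh (1054 bp) and Pdha1 (440 bp). Of 12 carriers 7 were called (58.3%), led by Mpc2 (1334 bp), a subunit of the pyruvate carrier, Vdac1 (735 bp) and Slc25a3 (699 bp), the phosphate carrier that feeds ATP synthase. Slc25a4, Slc25a5 and Slc25a31, which exchange ADP for ATP, were not called. Mitochondrial ribosomal protein genes were called in 20 of 78 cases (25.6%). Mdh2 and Suclg2 of the tricarboxylic acid cycle and the ribosomal Mrpl28 were called with no bp covered by both replicates.

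The cell label was checked with marker genes. Of 15 genes of double-negative T cells 5 were called (33.3%, against 16.8% of all genes), namely Cd3d, Cd3e, Cd3g, Dntt and Tcf7. Cd3d, Cd3e and Cd3g are neighbours on chromosome 9 with folds of 1.05 to 1.23, and Cd3d and Cd3g share their peak of replicate 1. Il2ra, Il7r, Ptcra, Bcl11b and Thy1 had a peak in 1 replicate, and Gata3, Lck, Notch1, Rag1 and Rag2 had none. No marker of later T cells, B cells, myeloid cells, erythroid cells or thymic stroma was called, and 1 of 5 markers of natural killer and innate lymphoid cells was (Nkg7). In either replicate these lists added only Cd68, a myeloid gene, in replicate 1. Most respiratory chain genes, the restricted isoforms apart, are transcribed in nearly every cell, so their peaks do not tell which cells carried them.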

How the data were processed

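Chromatin precipitated for H3K27ac was sequenced in 2 replicates. Bowtie2, mm10 and MACS 1.4.2 are named in the submitters' processing notes. The deposited peak lists have the broad layout of MACS2, so the version is uncertain. The peak names show 1 list per library, made after duplicate removal. Neither cutoff nor control is given in the sources used here. A peak's fold, a ratio of enrichment, and its −log10 q-value and −log10 p-value were deposited by the authors as their caller wrote them. The deposited score, 10 times the −log10 q, was not used. No read counts were given, so no interval can be given for a peak.

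Gene ends and promoters came from RefSeq tables of GRCm38.p6, and coordinates count from 1. A peak counted at a gene within 1 kb of an annotated end, and the peak of smallest p gave a gene's values. Both replicates form 1 group. Alternatives were a 2.5 kb window, either or each replicate, q of at most 0.05 or 1e-05, the 10000 peaks of smallest p, overlapping peaks, the 5' end alone and fewer chromosomes. No test was run on the list. Values are given for the 3 members of each complex with most shared bp, complex II, cytochromes c and c1, isoforms, members with q of at most 0.05 in both replicates and the 3 of smallest p per replicate. Other genes with values were chosen after those were seen. Members and lists were chosen with earlier results of these data known. On simulated peaks the gene-end call was compared with a direct search. Python 3.11.15, pandas 2.3.3 and numpy 2.4.6 were used. Some genes of the lists are not reported here by name.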

Additional observations from a re-analysis of the deposited data

How the results depend on the processing

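Counts below are of genes called, and all 98 genes, complexes I to V, the Ndufaf genes, the tissue-restricted isoforms and their partners are given in that order where listed. With a peak in either replicate they were 66, 30, 3, 8, 6, 13, 5, 1 and 2. With a single replicate they ranged from 48 to 52, 22 to 23, 2 to 3, 6 to 7, 3 to 6, 8 to 12, 3 to 4, 0 to 1 and 1 to 2. With q of at most 0.05 they were 5, 1, 1, 1, 0, 1, 1, 0 and 0, and with q of at most 1e-05 each was 0. With q of at most 0.05, 5 genes also had overlapping peaks (0 at 1e-05, against 33 with all peaks), and their median folds were 2.81 and 3.08. With the 5' end alone complex II had 1 of 3 and complex III 3 of 5, as fewer genes have a known start site, and the partners had 2 of 5, with Cox7a2 added by the peaks over its start site. Without chromosomes 6, 9, 14 and 17 complex II had 1 of 3. With a start site counted beside the gene ends, chosen after seeing the data, complex IV had 5 and the partners 2. The lists of assembly genes, regulators, tricarboxylic acid cycle and carriers had 4, 1, 1 and 2 genes with q of at most 0.05, and mitochondrial ribosomal protein genes had 4. With a peak in either replicate the assembly genes had 32 and the ribosomal ones 41, and with a single replicate the ribosomal ones had 30 to 31. The cause of these changes beyond the number of peaks was not tested. No paired analysis was possible because there is 1 group of 2 replicates. Over all genes 30.5% were called with a peak in either replicate, 25.1% with replicate 1 and 22.2% with replicate 2. With q of at most 0.05 the share was 2.64%, and with q of at most 1e-05 it was 0.731%. It was 18.2% with the 5' end alone, 16.9% without the 4 chromosomes and 18.3% with a start site counted. Unknown depth limits every absent peak.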

Other observations

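RefSeq lists 19 pseudogenes with the same symbol prefixes on nuclear chromosomes, and 0 had a gene-end peak in both replicates, beside 0.584% of all 10609 pseudogenes. Atp5k-ps3 had one in replicate 1, where 1.94% of all pseudogenes did, and replicate 2 had 0, beside 1.22%. With so few pseudogenes these counts are near those of all pseudogenes. How reads that match a gene and its copies were placed is not given in the sources used here.

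Within 2.5 kb of a gene end 36 of the 98 genes were called (36.7%, against 18.9% of all genes). The genes added by the wider window were Atp5g3 and Atp5h. With the 10000 peaks of smallest p, 32 were called (32.7%, against 14.4%), and with peaks of the replicates required to overlap 33 were (33.7%, against 16.2%).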
